A study of Mus musculus with 48 samples.

Results

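The tumour kind by dose interaction under anti-PD-1 compares how 20 Gy of radiation changed gene expression in primary mouse sarcomas with how it did so in transplanted allograft sarcomas, when all the mice had received an antibody that blocks PD-1. For each gene it is a difference of differences on the log2 scale: 20 Gy minus 0 Gy in primary tumours, less 20 Gy minus 0 Gy in allografts. A positive interaction means that the change at 20 Gy was more upward in primary tumours, and a negative one that it was more upward in allografts. The 24 tumours that received anti-PD-1, of 48 in the series, enter it: 8 primary tumours at 0 Gy, 8 primary tumours at 20 Gy, 4 allografts at 0 Gy and 4 allografts at 20 Gy.

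All were p53/MCA sarcomas of the hind limb, in mice of the 129/SvJae background. A primary tumour was started in the gastrocnemius muscle of a p53FL/FL mouse aged 6 to 10 weeks, with an adenovirus carrying Cre recombinase, which deletes floxed alleles, and with 300 µg of the carcinogen MCA. Each primary tumour therefore arose on its own. An allograft was grown from 50000 cells of 1 line, 402230, injected with Matrigel into the same muscle of syngeneic mice, so the allografts are repeated transplants of 1 tumour line. All of the mice of the anti-PD-1 groups received 200 µg of muDX400, a murine anti-PD-1 antibody, into the peritoneum. It was given once the tumour reached about 150 mm3. Radiation of 0 or 20 Gy to the whole hind limb followed at once, and the tumours were taken 3 days later for bulk RNA sequencing of polyadenylated RNA. The other tumours of the series, called isotype tumours below, came from mice labelled as given 200 µg of an isotype antibody in place of anti-PD-1. They were of the same tumour kinds and received the same radiation doses. They enter the fit, and their own interaction is given where named. The age of the allograft hosts is not given in the sources used here. The tumours below are numbered in accession order within each group.

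PD-1 is an inhibitory receptor on T cells, and an antibody against it lifts that inhibition where T cells meet their antigen. Ionising radiation breaks DNA and stops the cell cycle. It is also known to induce type I interferon, whose receptor acts through transcription factors that bind a promoter element called the ISRE, and to induce targets of p53 where p53 is intact. A transplanted line reaches a palpable tumour in a host that meets all of its antigens at once, whereas a primary tumour develops beside its host's own immune cells.

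The anti-PD-1 libraries held between 34742377 and 54008259 counted reads. Within each group every pair of libraries differed beyond counting noise, so none was the same library sequenced again. Separate samples of the same tumour are not excluded by this. Each library's title carries its own identifier number, but the labels do not say that each library is a separate mouse. The p-values measure the spread between these libraries. Trp53, the gene targeted in these tumours, lay between 21 and 51.9 CPM (counts-per-million units) in the 24 tumours, and reads summed over the gene cannot separate deleted from intact alleles. The list of 18 extracellular matrix genes, which a sarcoma is known to express, summed to between 8340 and 93500 CPM, and Krt5, Krt1 and Krt15 of the keratinocyte list were too low to be tested. Xist, which is made in female cells, exceeded 10 CPM in 1 unirradiated and 3 irradiated allografts, out of 4 each, and in 3 of the 8 primary tumours at either dose. The first digit of the identifier number was 5 in 3 of 4 allografts at each dose, in 1 of 8 primary tumours at 0 Gy and in none of the 8 at 20 Gy.

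Several tumours stood apart, and the results that rest on them are given with and without them. Primary tumour 5 at 20 Gy had the lowest summed level of the type I interferon list among the irradiated primary tumours: its Irf7 level was 180 CPM against 400 to 1120 CPM in the other 7, and its Mki67 level was 163 CPM against 56.1 to 89.8 CPM. Allograft tumour 3 at 0 Gy carried transcripts of immature neutrophils, with Ngp at 164 CPM against 0.34 to 3.58 CPM in the other 3. Primary tumour 4 at 20 Gy was rich in skeletal muscle RNA, with 101000 CPM summed over 18 muscle genes against a group median of 2380 CPM. Primary tumour 4 at 0 Gy had S100a8 at 91.2 CPM against at most 4.66 CPM in the other 7. The setting used below that leaves out 3 tumours together drops the first 3 of these and keeps the last. That last tumour held 12 of the 41 outlying values described further on.

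No gene had a tumour kind by dose interaction that passed an adjusted p of 0.05 in edgeR's quasi-likelihood test: 0 of 19327 genes tested (0%). The smallest adjusted p was 0.287. Unadjusted p was under 0.05 for 922 genes (4.77% of those tested), of which 507 (2.62%) had a positive and 415 (2.15%) a negative interaction. The count of called genes was also 0 in limma and on leaving out any 1 of the 24 tumours, with 662 to 1287 genes at an unadjusted p under 0.05 in the latter. DESeq2 called 3 genes (0.0155%), Ppbp, Car4 and Rem2, which are described further on. The median interaction over all genes was 0.03, and 53.4% of the genes had a positive one.

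These numbers of tumours limit what the comparison could detect. The median half-width of the 95% confidence interval of an interaction was 1.67 log2 units for genes whose mean was under 1 CPM and 1.14 for genes between 1 and 10 CPM. It was 0.597 for genes between 10 and 100 CPM and 0.618 above 100 CPM. These widths apply to a gene tested alone, without adjustment. A call used p adjusted over all genes tested, so it required an interaction larger than these widths for the typical gene of each level. The size that would have been called was not computed. The absence of a call does not show that the 2 tumour kinds responded alike.

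The separate dose effects that make up the interaction were tested in the same fit. In primary tumours 2156 genes changed at 20 Gy (11.2% of those tested), 1530 upward and 626 downward. In allografts 0.595% of the genes tested changed, 0.538% upward and 0.0569% downward, the latter 11 genes. The standard error of the dose effect had a median of 0.25 in primary tumours and 0.36 in allografts, which had 4 tumours a dose against 8. The fit used the same estimate of each gene's spread for both kinds. These standard errors therefore do not show each kind's own spread. With the kinds fitted apart, edgeR's biological coefficient of variation, a measure of spread between tumours, was 0.398 in anti-PD-1 allografts. It was 0.538 in anti-PD-1 primary tumours. The allograft count moved with single tumours: it was 3 without allograft tumour 4 at 0 Gy, 18 to 43 without allograft tumours 1 or 2 at 0 Gy or 1, 2 or 3 at 20 Gy, and 182, 209 and 349 without allograft tumour 4, primary tumour 4 and primary tumour 5 at 20 Gy. The primary count lay between 1438 and 2889 on leaving out any 1 tumour. With 0 interaction calls, a gene called in one tumour kind and not in the other is not shown to differ between them.

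The 2 dose effects, which share no tumours, mostly had the same direction where either was called. Of the genes called in allografts, 92 (80%) were also called in primary tumours and 23 were not. The 92 were made up of 85 that rose in both, 7 that fell in both and 0 that changed in opposite directions. The same 92 genes are 4.27% of the primary calls. The number called in both kinds was 3 without allograft tumour 4 at 0 Gy and 280 without primary tumour 5 at 20 Gy, 341 of 481 allograft calls in DESeq2, 412 of 1129 in limma, and 0 with the 24 anti-PD-1 tumours fitted alone. In opposite directions DESeq2 called 1 gene, and edgeR 1 without allograft tumour 4 at 20 Gy. The sign was the same in primary tumours for 98.3% of the allograft calls, and the 2 exceptions were Fkbp5 and Gm12551. Of the 2156 primary calls, 1924 (89.2%) had the same sign in allografts, against 68.1% of all genes tested. Across the 19327 genes the 2 sets of log2 fold changes had a Pearson r of 0.32 and a Spearman rho of 0.45. These are descriptions across genes, which are not independent, of fold changes that share 1 scaling of each library.

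**Figure D1:**
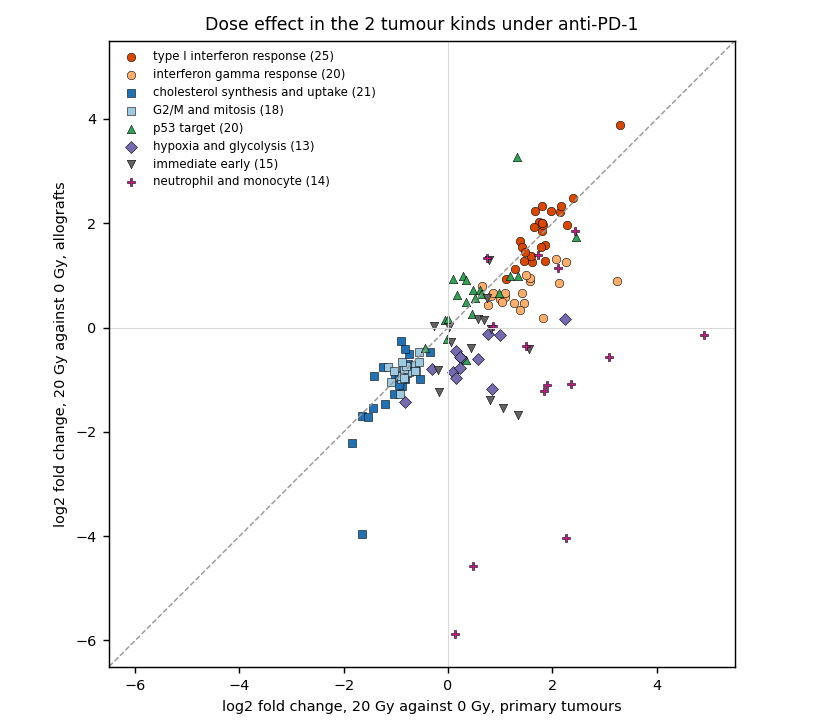
Each point is a gene of 1 of 8 lists, at its log2 fold change for 20 Gy against 0 Gy in primary tumours (horizontal) and in allografts (vertical) under anti-PD-1, and the dashed line marks equal effects, where the interaction is 0. The type I interferon and cholesterol genes mostly lie near the line (medians 1.79 and 1.93, and -0.95 and -0.985), while all 13 hypoxia genes and 13 of the 14 neutrophil and monocyte genes lie to its right.

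The listed type I interferon genes rose in primary tumours and some of them in allografts, and no member of the list had an interaction with an unadjusted p under 0.05. All 25 listed genes rose in primary tumours, where 7.92% of all genes tested rose, with a median of 1.79, and 6 rose in allografts, where 0.538% did: Ifit2, Oas2, Oasl1, Irf7, Herc6 and Slfn4. The median allograft fold change was 1.93, the interactions ran from -0.58 to 0.58, and the median confidence half-width was 1.27. Irf7 encodes the transcription factor that amplifies interferon production. In allografts its level was 241, 265, 305 and 120 CPM at 0 Gy and 1670, 746, 1370 and 898 CPM at 20 Gy. In primary tumours it ran from 56.3 to 294 CPM at 0 Gy, with a median of 185 CPM, and from 180 to 1120 CPM at 20 Gy, with a median of 823 CPM. The doses did not overlap in allografts and overlapped in primary tumours through tumour 5 at 20 Gy. Irf7 rose by 2.17 log2 units (SE 0.39) in primary tumours and by 2.33 (SE 0.55) in allografts, and its interaction was -0.16 with a 95% interval from -1.46 to 1.14. The allograft calls for this list numbered 0 to 14 on leaving out 1 tumour, and 13 with allograft tumour 3 at 0 Gy and primary tumours 4 and 5 at 20 Gy left out together. They numbered 18 in DESeq2 and 23 in limma, and 0 with no expression filter, with the 24 anti-PD-1 tumours fitted alone and with the Xist covariate. All 25 allograft fold changes of the test over 48 tumours were positive. The primary calls numbered 24 or 25 throughout. The median interaction was -0.09, and ran from -0.291 without allograft tumour 2 at 20 Gy to 0.24 without allograft tumour 1 at 20 Gy.

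The promoters of Isg15 and Ifit1 are shown because these genes of the interferon list, an antiviral ubiquitin-like protein and an RNA-binding antiviral protein, each hold the element through which type I interferon acts. Both rose in primary tumours, Isg15 by 1.66 and Ifit1 by 1.74 log2 units, and their allograft fold changes were 2.23 and 2.02. Capitals mark matches to the ISRE core, 2 copies of GAAA with any 2 bases between them, on either strand (2 copies of TTTC on the printed strand for the other one), and neighbouring matches can overlap. The windows run from 250 bases before to 50 bases after the gene's start, 5′ to 3′ on the gene's strand, and come from RefSeq on build GRCm38.p6 (mm10), at chr4:156200769-156201068, minus strand, and chr19:34640639-34640938, plus strand.
Isg15: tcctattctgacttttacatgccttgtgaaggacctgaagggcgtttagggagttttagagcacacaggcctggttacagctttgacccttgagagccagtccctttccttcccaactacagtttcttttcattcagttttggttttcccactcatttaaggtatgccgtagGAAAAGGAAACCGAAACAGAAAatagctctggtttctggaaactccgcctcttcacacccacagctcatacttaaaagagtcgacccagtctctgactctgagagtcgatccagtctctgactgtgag
Ifit1: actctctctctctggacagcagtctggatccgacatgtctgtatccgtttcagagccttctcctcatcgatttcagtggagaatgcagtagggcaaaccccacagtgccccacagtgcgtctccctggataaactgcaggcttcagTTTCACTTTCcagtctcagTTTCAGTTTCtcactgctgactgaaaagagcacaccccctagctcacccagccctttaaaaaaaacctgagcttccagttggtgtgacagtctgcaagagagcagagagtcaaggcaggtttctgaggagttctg

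Of the 25 listed interferon genes, 19 had a promoter in that table, and 10 of the 19 held this element in a window of 300 bases. A promoter with it was found for 3.99% of all 27025 genes in the table, and 3.44% of its 32851 promoters held it. The 10 were Ifit1, Ifit3, Isg15, Oas1a, Oas3, Rsad2, Bst2, Ddx58, Ifih1 and Slfn5. Of the genes called in both tumour kinds, Ifit2, Oasl1, Irf7, Herc6 and Slfn4 held no match, and Oas2 had no promoter listed. A match is a run of letters and was not tested as a site of binding.

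Of 20 listed genes that interferon gamma induces, 17 rose in primary tumours, beside 7.92% of all genes, and the list had a median of 1.40. The primary calls numbered 11 in limma, and from 12 without primary tumour 7 at 20 Gy to 19 without primary tumour 5 at 20 Gy. In allografts 0 of the 20 were called, by limma 1 (limma called 5.84% of all genes there), and the median was 0.66. The interaction was positive for 19 of the 20, with a median of 0.65 (0.426 without allograft tumour 2 at 20 Gy) beside 0.03 over all genes, and unadjusted p was under 0.05 for 2: Ido1, which degrades tryptophan, at 2.35, and Gbp5, a guanylate-binding protein, at 1.27. That number was 0 with the 3 tumours named above left out and with the Xist covariate, and 0 to 3 with 1 tumour left out. Cd274 encodes PD-L1, the ligand of PD-1. Its level in allografts was 79.4, 20.8, 82.1 and 44.9 CPM at 0 Gy and 111.4, 107.6, 160 and 163 CPM at 20 Gy. Its level in primary tumours ran from 6.18 to 26.3 CPM at 0 Gy (median 11.5 CPM) and from 11.3 to 107.02 CPM at 20 Gy (median 53.7 CPM). Of the unirradiated allografts 3 of 4 stood above every unirradiated primary tumour, and the doses overlapped in primary tumours but not in allografts. Cd274 rose by 2.27 in primary tumours (SE 0.39), its allograft fold change was 1.25 (SE 0.53, adjusted p 0.276), and its interaction was 1.01 with an interval from -0.27 to 2.30.

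The T cell and cytotoxic list had no stable direction: 16 of its 19 interactions were positive, but 6 of 19 in limma and with the 3 tumours that stood apart left out (allograft tumour 3 at 0 Gy, primary tumours 4 and 5 at 20 Gy), and the median went from 0.30 to -0.59 and -0.55. It was -0.515 without primary tumour 4 at 20 Gy alone. Gzma, Gzmb, Prf1 and Ccl5 rose in primary tumours, 4 of the 19 genes of the T cell and cytotoxic list where 7.92% of all genes rose, and in allografts 0 were called by edgeR and DESeq2 and 1 by limma. Gzmb, a granule protease of killer lymphocytes, had a level of 144.15, 37, 133.5 and 73.4 CPM in allografts at 0 Gy and 246, 146, 393 and 224 CPM at 20 Gy. Primary tumours ranged from 5.92 to 30.9 CPM at 0 Gy (median 14.1 CPM) and from 4.91 to 146 CPM at 20 Gy (median 61.6 CPM). The doses overlapped in primary tumours, where tumour 5 was the lowest at 20 Gy, and not in allografts. Gzmb rose by 2.23 in primary tumours (SE 0.56), its allograft fold change was 1.38 (SE 0.76), and its interaction was 0.85 (interval -1.01 to 2.71). Lag3, an inhibitory receptor of activated T cells, had an interaction of 1.71 (unadjusted p 0.00272), with a rise of 1.63 in primary tumours and a fold change of -0.09 in allografts. It had the smallest p of the list of 13 inhibitory receptor and regulatory T cell genes, of which 8 had a positive interaction, with a median of 0.22. In limma 4 of the 13 were positive (median -0.40), and 3 with the 3 tumours left out (median -0.44). In bulk tissue a change in the number of cells of a type and a change in RNA per cell cannot be told apart.

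Cdkn1a, which encodes the cell cycle inhibitor p21, rose in both tumour kinds. Its level in allografts was 88.6, 41.8, 69.6 and 75.1 CPM at 0 Gy and 212, 326, 199 and 176 CPM at 20 Gy. Its level in primary tumours ran from 32.1 to 55.8 CPM at 0 Gy (median 46.4 CPM) and from 78.8 to 469 CPM at 20 Gy (median 228 CPM). The doses did not overlap in either kind. The rise was 2.44 (SE 0.24) in primary tumours and 1.73 (SE 0.33) in allografts, and the interaction was 0.72 (SE 0.39, unadjusted p 0.0727, interval -0.07 to 1.5). The allograft call was lost without allograft tumour 2 or 4 at 0 Gy.

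Gdf15 and Bbc3, 2 other p53 targets, had negative interactions, in tumours made by deleting p53. Gdf15, a secreted stress cytokine, rose by 3.26 (SE 0.58) in allografts and by 1.32 (SE 0.37) in primary tumours, and its interaction was -1.94 (SE 0.66, unadjusted p 0.00535, adjusted p 0.905). Its level in allografts was 0.16, 0.0715, 0.207 and 0.33 CPM at 0 Gy, from 4 to 13 reads a tumour, and 1.64, 2.71, 1.73 and 1.31 CPM at 20 Gy. The primary tumours ran from 0.532 to 5.06 CPM at 0 Gy and from 1.92 to 8.84 CPM at 20 Gy. Unirradiated primary tumours already stood above unirradiated allografts. Bbc3 encodes PUMA, a killer protein of the BCL2 family, and its level in allografts was 8.98, 8.72, 8.39 and 8.06 CPM at 0 Gy and 17, 23.9, 16.2 and 11.1 CPM at 20 Gy. Its allograft fold change was 0.997 (SE 0.26, adjusted p 0.0534), that in primary tumours was 0.28 (SE 0.18), and the interaction was -0.72 (unadjusted p 0.0262). Of the 20 p53 targets listed, 8 rose in primary tumours (5 in limma), beside 7.92% of all genes, and 2, Cdkn1a and Gdf15, in allografts, beside 0.538%. The allograft calls numbered 1 without allograft tumour 2 or 4 at 0 Gy, 5 without primary tumour 5 at 20 Gy, 5 in DESeq2, 6 in limma, and 0 with the 24 anti-PD-1 tumours fitted alone. The median interaction was -0.08, and 0.029 with the Xist covariate.

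Most listed genes of cholesterol synthesis fell in primary tumours, and a few in allografts. In primary tumours 18 of the 21 listed genes fell, where 3.24% of all genes tested fell, and in allografts 4 fell, where 0.0569% did, among them Cyp51, Stard4 and Srebf2. The medians were -0.95 and -0.985 and the median interaction was 0.10. Hmgcs1, an early enzyme of the pathway, had a level of 63.4, 55.6, 63.4 and 93.7 CPM in allografts at 0 Gy and 31.3, 38.2, 32.2 and 41.1 CPM at 20 Gy. Primary tumours ranged from 65.7 to 125.05 CPM at 0 Gy (median 81.9 CPM) and from 37.1 to 66.6 CPM at 20 Gy (median 42.4 CPM), and the only 20 Gy tumour within the 0 Gy range was tumour 5. Its fold change was -1.01 (SE 0.18) in primary tumours and -0.95 (SE 0.25, adjusted p 0.0587) in allografts, and its interaction was -0.06 (interval -0.68 to 0.56). The allograft calls of this list numbered 0 to 10 on leaving out 1 tumour, 12 in DESeq2, 16 in limma, 1 with the Xist covariate, and 0 with no expression filter or with the 24 anti-PD-1 tumours fitted alone. All 21 fold changes were negative in each kind.

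Of 18 listed mitotic genes 13 fell in primary tumours (median -0.85), beside 3.24% of all genes, and in allografts 0 were called with a median of -0.83, by DESeq2 1 (2.49% of all genes) and by limma 9. The primary calls numbered 7 without primary tumour 6 at 0 Gy or 4 at 20 Gy and with the 24 anti-PD-1 tumours fitted alone, and 16 without primary tumour 5 at 20 Gy. Mki67, which marks cycling cells, fell by 0.90 in primary tumours (SE 0.25). Its fold change in allografts was -0.99 (SE 0.36, adjusted p 0.183), and its interaction was 0.09 with an interval from -0.79 to 0.96. The sign of that interaction turned on leaving out any 1 of 6 tumours.

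**Figure D2:**
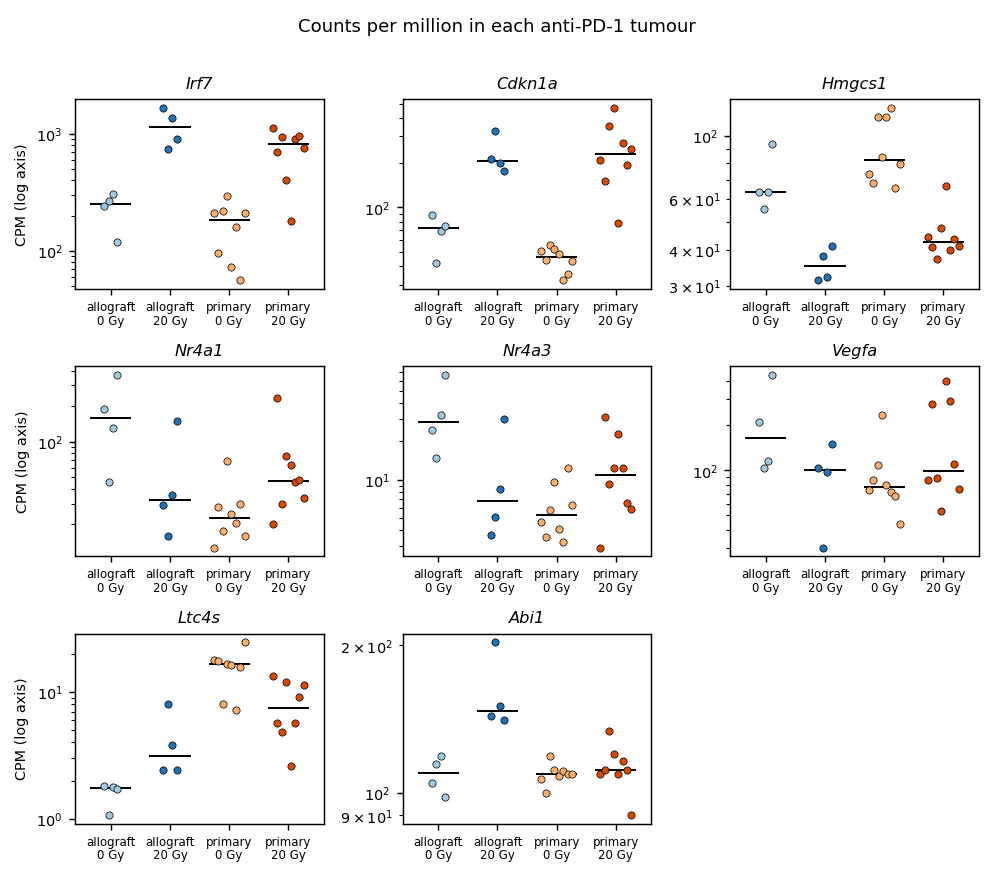
Each point is 1 tumour's CPM (log axis) for 8 genes, in the 4 anti-PD-1 groups (4 tumours in each allograft group, 8 in each primary group), and the bar is the group median. Irf7 and Cdkn1a are higher and Hmgcs1 lower at 20 Gy in both tumour kinds, whereas the medians of Nr4a1, Nr4a3 and Vegfa are lower at 20 Gy in allografts and higher in primary tumours, and every irradiated allograft is above all the other tumours for Abi1.

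The genes named next were chosen by a fixed rule on the interaction itself: the 12 positive and the 12 negative interactions with the smallest p among 11906 genes that reached a group mean of 5 CPM and have a standard symbol. Their p-values are therefore a description of the ends of a list in which nothing passed the adjusted threshold. The adjusted p of the 24 lay between 0.674 and 0.905.

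Among genes with a positive interaction, the orphan nuclear receptor Nr4a1 rose in primary tumours, while its level was lower in 3 of 4 irradiated allografts than in every unirradiated one. NR4A receptors are immediate early genes, switched on within minutes by growth factor, antigen receptor and cyclic AMP signals. In allografts Nr4a1 had a level of 188, 45.7, 131.7 and 367 CPM at 0 Gy and 29.4, 15.8, 35.2 and 150 CPM at 20 Gy. In primary tumours it ran from 12.7 to 68.5 CPM at 0 Gy (median 22.5 CPM) and from 20 to 235 CPM at 20 Gy (median 46.6 CPM). The doses overlapped in both kinds, in allografts through tumour 4 at 20 Gy. Its interaction was 3.01 (SE 0.77, unadjusted p 0.000324, adjusted p 0.774). It rose by 1.34 in primary tumours (adjusted p 0.0403), a call that was lost on leaving out any 1 of 9 tumours, and its allograft fold change was -1.67 (adjusted p 0.203). The interaction ran from 2.39, without primary tumour 2 at 20 Gy, to 4.11, without allograft tumour 4 at 20 Gy.

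The other members of the NR4A family had the same signs. Nr4a3 had a level of 24.7, 14.8, 32.1 and 66.4 CPM in allografts at 0 Gy and 3.69, 5.05, 8.52 and 29.9 CPM at 20 Gy, with an interaction of 2.61 (SE 0.80, unadjusted p 0.00216). Nr4a2 had a level of 87.3, 55, 86.8 and 166 CPM in allografts at 0 Gy and 20.9, 14, 31.3 and 83.8 CPM at 20 Gy, with an interaction of 2.20 (SE 0.83, unadjusted p 0.0114). In both genes 3 of the 4 irradiated allografts lay below all unirradiated ones, and tumour 4 did not. Nr4a2 was named after its values were seen. Fos, Egr1 and Junb, of the same list of 15 immediate early genes, had interactions of 0.83, 0.83 and 0.41, Ier3 had one of 1.96 (unadjusted p 0.0188), and the first 3 had unadjusted p-values from 0.153 to 0.265. Jun and Atf3 had negative interactions, and the list's median was 0.60, or 0.272 without allograft tumour 4 at 0 Gy and 0.938 without primary tumour 5 at 0 Gy.

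The promoters of the 3 NR4A genes are shown because the 3 genes have positive interactions, none of which passed the adjusted threshold, and because cyclic AMP signalling is known to act on them through CREB, which binds the half-site TGACG. Capitals mark that half-site on either strand (CGTCA on the printed strand for the other one), in windows defined as above, at chr15:101266596-101266895, plus strand, chr2:57123954-57124253, minus strand, and chr4:48045055-48045354, plus strand.
Nr4a1: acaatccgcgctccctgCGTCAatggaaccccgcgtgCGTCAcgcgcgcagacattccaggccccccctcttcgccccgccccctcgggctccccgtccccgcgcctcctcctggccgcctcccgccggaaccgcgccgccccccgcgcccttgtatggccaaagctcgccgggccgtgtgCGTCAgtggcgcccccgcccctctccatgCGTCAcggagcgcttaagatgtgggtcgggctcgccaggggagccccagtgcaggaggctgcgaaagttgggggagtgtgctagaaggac
Nr4a2: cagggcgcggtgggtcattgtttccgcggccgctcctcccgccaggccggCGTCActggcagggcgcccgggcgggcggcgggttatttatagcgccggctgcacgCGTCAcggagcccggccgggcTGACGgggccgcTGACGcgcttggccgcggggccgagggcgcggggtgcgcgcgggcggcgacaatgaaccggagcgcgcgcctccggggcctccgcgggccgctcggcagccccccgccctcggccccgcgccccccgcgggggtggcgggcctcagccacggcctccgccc
Nr4a3: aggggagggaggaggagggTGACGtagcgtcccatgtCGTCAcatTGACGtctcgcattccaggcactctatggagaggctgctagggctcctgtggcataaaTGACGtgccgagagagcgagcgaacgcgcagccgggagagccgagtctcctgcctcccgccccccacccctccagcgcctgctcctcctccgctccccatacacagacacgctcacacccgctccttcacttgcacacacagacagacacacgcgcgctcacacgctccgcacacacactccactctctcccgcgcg

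Each of the 3 windows held 4 half-sites. Of the 15 immediate early genes, 11 had a promoter in the table, and 9 of the 11 held at least 1, beside 23% of all genes in the table and 20.8% of all promoters. In TGACGTG the half-site overlaps the hypoxia response core ACGTG. The letters were counted and no binding was measured.

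Hypoxia and glycolysis genes had positive interactions in 13 of 13 cases, with a median of 0.94, and unadjusted p was under 0.05 for 6, where 2.62% of all genes had such a positive interaction: Vegfa, Pfkp, Hk2, Pdk1, Ldha and Car9. The 6 became 2 without allograft tumour 4 at 0 Gy and 9 without primary tumour 4 at 0 Gy. Pfkp, Hk2 and Car9 rose in primary tumours, where 7.92% of all genes rose, and 0 of the 13 in allografts, where 0.538% did, by DESeq2 0. Their median fold change was 0.24 in primary tumours and -0.61 in allografts. Vegfa, the main signal for vessel growth, had a level of 211, 103.6, 115.99 and 436 CPM in allografts at 0 Gy and 103.7, 30.4, 98.1 and 151 CPM at 20 Gy. Primary tumours ranged from 43.6 to 234 CPM at 0 Gy (median 77.3 CPM) and from 53.1 to 398 CPM at 20 Gy (median 99.8 CPM). The doses overlapped in both kinds. Its interaction was 2.02 (SE 0.68, unadjusted p 0.00498) and ran from 1.43, without allograft tumour 4 at 0 Gy, to 2.35. With the 3 tumours that stood apart left out, 1 of the 13 genes had an unadjusted p under 0.05, the median was 0.79 and 0 genes were called in primary tumours. Without primary tumour 4 at 0 Gy, which that setting keeps, the median was 1.37. The core ACGTG stood in the promoters of 9 of the 12 listed hypoxia genes that the table holds, beside 21.8% of all genes in the table and 19.6% of all promoters.

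Other genes at the positive end had high values in primary tumour 5 at 20 Gy, the tumour with the lowest interferon level of its group. Bhlhe40, a transcriptional repressor known to respond to hypoxia, had a level of 107.97, 56.2, 83.4 and 214 CPM in allografts at 0 Gy and 48.9, 58, 54.2 and 57 CPM at 20 Gy, and reached 245 CPM in that primary tumour. Its interaction was 1.70 (SE 0.42, unadjusted p 0.000245). Uap1, an enzyme that makes UDP-N-acetylglucosamine, was at 295 CPM in that tumour and at 50.9 to 150 CPM in the other 7, and its interaction was 1.34, or 0.97 without it. Slc39a14, a zinc transporter, was at 391 CPM in it and at 72.5 to 318 CPM in the others, with an interaction of 1.48. Both genes, Acsl4 and Gbe1 rose in primary tumours by 0.79 to 0.97, and without that tumour the rise of Uap1 was 0.444 and was no longer called (edgeR adjusted p 0.0921). Acsl4, which loads arachidonic acid onto coenzyme A, and Gbe1, the glycogen branching enzyme, had interactions of 1.40 and 1.47, and 1.11 and 1.22 without that tumour. Pak3, a kinase that acts downstream of Rac, was at 62.3 CPM in it, with an interaction of 2.06, or 1.58 without it.

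Fkbp5 and Pxylp1 had positive interactions with lower values in irradiated allografts. Fkbp5, a co-chaperone of the glucocorticoid receptor that glucocorticoids induce, had a level of 156, 328, 237 and 128.6 CPM in allografts at 0 Gy and 63.6, 81, 77 and 63.6 CPM at 20 Gy. The primary tumours ran from 110.4 to 323 CPM at 0 Gy (median 189 CPM) and from 106.8 to 325 CPM at 20 Gy (median 211 CPM). The allograft doses did not overlap and the primary doses overlapped. Fkbp5 fell by 1.57 in allografts (SE 0.40, adjusted p 0.0492), a call lost on leaving out any 1 of 13 tumours, its primary fold change was 0.11 (SE 0.27), and its interaction was 1.68 (SE 0.48, unadjusted p 0.00101). Pxylp1, a phosphatase of proteoglycan synthesis, was at 9.92, 14.7, 9.79 and 17.7 CPM in allografts at 0 Gy and at 6.68, 2.29, 4.53 and 5.87 CPM at 20 Gy, with an interaction of 2.05 (SE 0.56).

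Neutrophil genes had high positive values, and 1 allograft set the size of several. Ltf encodes lactoferrin, a protein of neutrophil secondary granules. In allografts it was at 1.14, 0.393, 82.7 and 2.18 CPM at 0 Gy and at 1.51, 0.483, 0.925 and 0.731 CPM at 20 Gy. In all 16 primary tumours it was between 0.0987 and 1.52 CPM. Its interaction was 5.04 (SE 1.48, unadjusted p 0.00144), and 0.89 without allograft tumour 3 at 0 Gy. Camp and Ngp, granule proteins of the same kind named after their values were seen, went from 6.30 to 2.67 and from 6.00 to 1.72. Ppbp, a platelet chemokine, went from 6.74 to 2.78. With that tumour left out the median of the 14 neutrophil and monocyte genes went from 3.03 to 0.78, and without primary tumour 4 at 0 Gy it was 5.22.

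The interaction of Mmp8 depended less on that allograft and that of S100a8 on several tumours. Mmp8, the neutrophil collagenase, had a level of 4.53, 0.912, 21.5 and 2.21 CPM in allografts at 0 Gy and 3.87, 9.93, 7.13 and 5.46 CPM at 20 Gy. Primary tumours ranged from 0.285 to 3.54 CPM at 0 Gy (median 0.422 CPM) and from 0.848 to 134.3 CPM at 20 Gy (median 10.4 CPM). It rose by 4.91 in primary tumours (SE 0.85, adjusted p 0.000212), its allograft fold change was -0.14, and its interaction was 5.05 (SE 1.35, unadjusted p 0.000533), or 3.52 without allograft tumour 3. S100a8, a subunit of the calprotectin of neutrophils and monocytes, had an interaction of 2.99 (SE 1.86, unadjusted p 0.116), which was 0.51 without that allograft and 6.07 without primary tumour 4 at 0 Gy. Retnlg, Mmp8, Csf3r and Ly6c2 rose in primary tumours, 4 of the 14 where 7.92% of all genes rose. The number was 9 without primary tumour 4 at 0 Gy, and 3 without primary tumour 3, 5, 6, 7 or 8 at 0 Gy or 6 at 20 Gy. In allografts 0 were called (0.538% of all genes rose there), by DESeq2 0 upward and 2 downward, and by limma 2 upward and 0 downward.

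**Figure D3:**
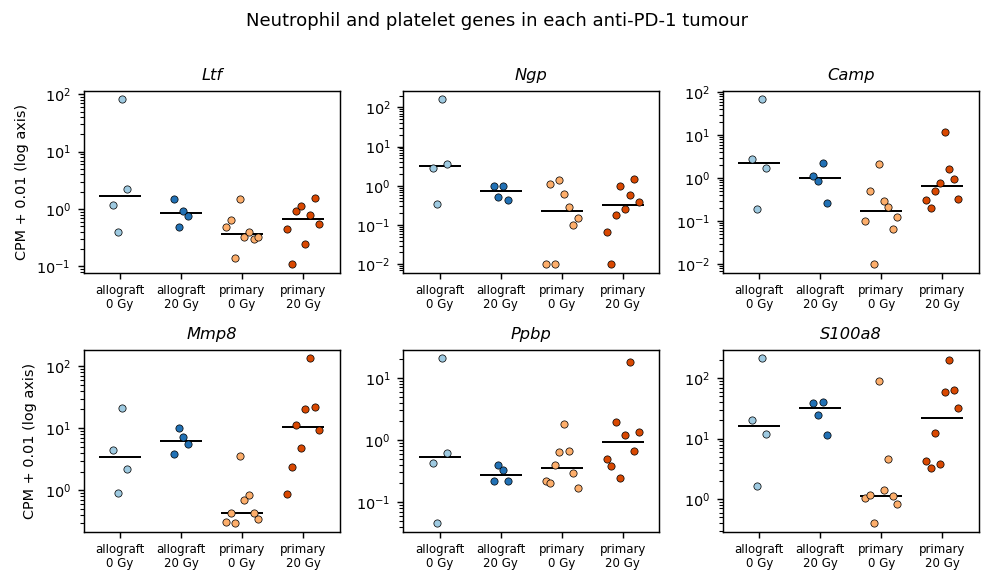
Each point is 1 anti-PD-1 tumour's CPM plus 0.01 (log axis) for 5 neutrophil genes and the platelet gene Ppbp, in the 4 groups, and the bar is the group median. The single high allograft at 0 Gy in each panel is tumour 3 (Ngp at 164 CPM), and the highest primary tumour at 20 Gy for Mmp8, Ppbp and S100a8 is tumour 6 (134.3, 17.6 and 200 CPM).

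Genes of macrophage activation had interactions in both directions, positive for 9 of the 15 listed and with a median of 0.78, or 0.388 without allograft tumour 4 at 0 Gy. Il6 encodes an inflammatory cytokine that macrophages, fibroblasts and tumour cells release. In allografts its level was 7.92, 0.393, 2.26 and 4.82 CPM at 0 Gy and 3.48, 2.75, 7.96 and 8.04 CPM at 20 Gy. In primary tumours it ran from 0.415 to 4.28 CPM at 0 Gy (median 0.626 CPM) and from 0.910 to 42.5 CPM at 20 Gy (median 5.596 CPM). The doses overlapped in both kinds, in primary tumours through tumour 4 at 0 Gy, without which the lowest irradiated tumour stood above all unirradiated ones. Il6 rose by 3.33 in primary tumours (SE 0.69, adjusted p 0.0015), its allograft fold change was 0.53 (SE 0.90, adjusted p 0.866), and its interaction was 2.79 (SE 1.13, unadjusted p 0.0171), or 1.96 without primary tumour 6 at 20 Gy and 3.62 without primary tumour 4 at 0 Gy. Retnla, Nos2, Ptgs2 and Il1rn also had positive interactions with unadjusted p under 0.05, of 4.34, 1.67, 2.02 and 1.32. The number of listed genes with such an interaction went from 6 to 2 without allograft tumour 1 at 0 Gy. Il10, Il12b, Tnf, Il1b, Cd86 and Ccl17 had negative ones, from -1.15 to -0.12, with 0 of them at an unadjusted p under 0.05.

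Ltc4s, which makes leukotriene C4 in mast cells and macrophages, had the smallest p of the negative interactions. In allografts it was at 1.8, 1.07, 1.77 and 1.72 CPM at 0 Gy and at 2.44, 8.07, 3.82 and 2.43 CPM at 20 Gy. The primary tumours ran from 7.15 to 24.7 CPM at 0 Gy (median 16.5 CPM) and from 2.62 to 13.3 CPM at 20 Gy (median 7.40 CPM). The 20 Gy values were above all 0 Gy values in allografts, and in primary tumours 4 of the 8 were below all 0 Gy values. The interaction was -2.34 (SE 0.55, unadjusted p 0.000105, adjusted p 0.674), from -2.54 to -1.84 on leaving out 1 tumour. Ltc4s fell by 0.95 in primary tumours (adjusted p 0.0404), a call lost on leaving out any 1 of 10 tumours, and its allograft fold change was 1.39 (adjusted p 0.125).

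Abi1 and Actr3 belong to the machinery that branches actin filaments: Abi1 is a subunit of the WAVE complex and Actr3 of the Arp2/3 complex. Abi1 had a level of 104.7, 114.5, 119.1 and 98.1 CPM in allografts at 0 Gy and 143.8, 203, 150 and 140.8 CPM at 20 Gy. In primary tumours it ran from 99.9 to 119.2 CPM at 0 Gy and from 90.2 to 133.8 CPM at 20 Gy, with medians of 109.1 and 111.4 CPM. Irradiated allografts stood above all the other anti-PD-1 tumours. Abi1 rose by 0.55 in allografts (SE 0.12, adjusted p 0.02), a call lost without allograft tumour 1 or 4 at 0 Gy or tumour 2 at 20 Gy, its primary fold change was 0.04 (SE 0.08), and its interaction was -0.50 (SE 0.14, unadjusted p 0.000867). Actr3 had a level of 577, 496, 617 and 450 CPM in allografts at 0 Gy and 857, 979, 792 and 665 CPM at 20 Gy. Its allograft fold change was 0.62 (SE 0.17, adjusted p 0.0657), its primary one was -0.02 (SE 0.12), and its interaction was -0.64 (SE 0.21, unadjusted p 0.0037).

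Pea15a, a small adaptor that binds ERK, had opposite signs in the 2 kinds. It was at 152, 126.6, 146 and 103.8 CPM in allografts at 0 Gy and at 203, 198, 175 and 145 CPM at 20 Gy. The primary tumours ran from 189 to 270 CPM at 0 Gy (median 234 CPM) and from 126.2 to 264 CPM at 20 Gy (median 177 CPM). Its fold change was 0.45 (SE 0.17, adjusted p 0.222) in allografts and -0.33 (SE 0.12, adjusted p 0.0663) in primary tumours, and its interaction was -0.78 (SE 0.21, unadjusted p 0.000591). Neither dose effect of Pea15a passed the threshold.

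Stap1 and Ms4a7, genes of macrophages and other leukocytes, rose in allografts. Stap1, an adaptor of immune receptor signalling, was at 4.29, 4, 3.66 and 1.65 CPM in allografts at 0 Gy and at 24.3, 22.4, 14.8 and 12.9 CPM at 20 Gy, and rose by 2.45 there (SE 0.58, adjusted p 0.0415). Its primary fold change was 0.11 (SE 0.40) and its interaction was -2.34 (SE 0.69, unadjusted p 0.00153). Ms4a7, a membrane protein of macrophages, was at 86.3, 78.2, 96.3 and 30.9 CPM in allografts at 0 Gy and at 312, 443, 342 and 129.2 CPM at 20 Gy. It rose by 2.07 in allografts (SE 0.47, adjusted p 0.0337), its primary fold change was 0.60 (SE 0.32), and its interaction was -1.48 (SE 0.56, unadjusted p 0.0119). Both genes showed no overlap between the doses in allografts, and their allograft calls were lost on leaving out any 1 of 7 and 6 tumours.

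Lilra5, an activating leukocyte receptor, was at 3.59, 8.47, 3.36 and 1.29 CPM in allografts at 0 Gy and at 26.5, 22.6, 18.1 and 9.66 CPM at 20 Gy, with an interaction of -2.51 (SE 0.82). Evi2a, a leukocyte membrane protein, was at 29.4, 15.6, 27.9 and 19.3 CPM and at 62.9, 73.3, 72 and 34.6 CPM, with an interaction of -1.30 (SE 0.43). Evi2a lies inside an intron of Nf1 on the opposite strand, and whether counting used strand is not given in the sources used here. Cx3cr1, the fractalkine receptor of resident macrophages, was at 41.1, 155, 49.2 and 31.4 CPM in allografts at 0 Gy and at 199, 168, 65.2 and 71.8 CPM at 20 Gy. In primary tumours its median was 175 CPM at 0 Gy and 99 CPM at 20 Gy, and tumours 5, 6 and 8 at 20 Gy were at 12.1, 10.6 and 24 CPM. Its interaction was -2.06 (SE 0.72, unadjusted p 0.00656). Of the 13 genes of the macrophage list 9 had a negative interaction, and unadjusted p was under 0.05 for Cx3cr1 and Ms4a7. C1qa, C1qb, C1qc and Csf1r had interactions from -0.41 to -0.33, and the median of the list was -0.37 (-0.573 in limma, -0.572 without primary tumour 4 at 20 Gy and -0.163 without allograft tumour 4 at 0 Gy) with a median confidence half-width of 0.956.

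For Fcrls and Rian the interaction leaned on 1 irradiated allograft. Fcrls, a receptor of resident macrophages, was at 5.28, 54.3, 4.97 and 6.26 CPM in allografts at 20 Gy against 6.16 to 11 CPM at 0 Gy. It fell by 1.75 in primary tumours (SE 0.53, adjusted p 0.0253), and its interaction was -2.80 (SE 0.92), or -1.15 without allograft tumour 2 at 20 Gy. Rian, an imprinted noncoding RNA, was at 4.94, 51.3, 10.5 and 17.7 CPM in allografts at 20 Gy, fell by 1.43 in primary tumours, and had an interaction of -2.40, or -1.52 without the same allograft. Primary tumour 4 at 0 Gy had the same part for Cplx2, a protein of secretory vesicles, and Ptpn5, a phosphatase of neurons: without it their interactions went from -2.48 to -1.93 and from -2.79 to -1.74.

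The same interaction can be computed in the 24 isotype tumours, which are other libraries. Of the 24 genes named by the rule, 23 had the same sign under isotype, and 11 of them an unadjusted p under 0.05, as 9.9% of all genes tested had. The p-values of both arms use the same estimate of each gene's spread. Genes chosen for a small p under anti-PD-1 can thus have a small p under isotype for that reason, and the 11 are not an independent check. Of the 922 genes with an unadjusted p under 0.05 under anti-PD-1, 603 (65.4%) had the same sign under isotype, where 48.9% of all genes did. Of the genes with an unadjusted p under 0.05 in both arms, 97.1% had the same sign and 4 opposite signs. Across all genes the 2 interactions had a Pearson r of 0.26, a description over genes that are not independent. Nr4a1 had 3.01 under anti-PD-1 and 2.17 (SE 0.76) under isotype, Abi1 -0.50 and -0.57 (SE 0.14), and Pea15a -0.78 and -0.72 (SE 0.21). Acsl4 and Rian had 1.40 and -0.01, and -2.40 and -0.17. The difference between the arms, a test of tumour kind by dose by antibody, passed for 0 of 19327 genes in edgeR and in DESeq2 (smallest edgeR adjusted p 0.791), with 1037 genes (5.37%) at an unadjusted p under 0.05.

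**Figure D4:**
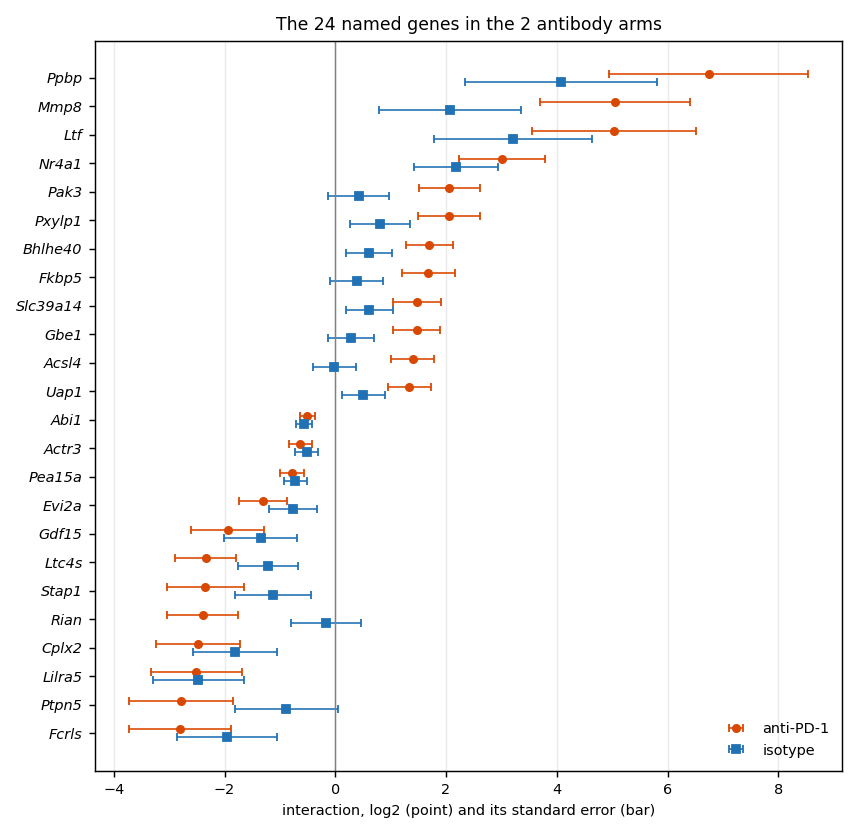
For the 24 genes named by the rule, points give the tumour kind by dose interaction in log2 units under anti-PD-1 (circles) and under isotype (squares), and bars give 1 standard error. The anti-PD-1 values chose the genes. Of the 24, 23 have the same sign in both arms, and Acsl4 is the exception.

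Averaged over the 2 antibodies, which uses the same anti-PD-1 tumours with the isotype tumours added, the interaction passed for 5 genes (0.0259% of those tested), of which 4 are described here. Car4, a membrane carbonic anhydrase, had 4.62 (SE 0.88, adjusted p 0.021), with 5.98 under anti-PD-1 and 3.25 under isotype. Abi1 had -0.54 (SE 0.10, adjusted p 0.0183). Swap70, which links phosphoinositides to Rac and actin, had -0.64 (SE 0.12, adjusted p 0.0183), and Pea15a -0.75 (SE 0.15, adjusted p 0.0336). On leaving out each of the 48 tumours in turn, Abi1 kept the call in 47 cases, Swap70 in 45, Car4 in 43 and Pea15a in 41. Leaving out the isotype allograft 1 at 20 Gy ended these 4 calls, and their highest adjusted p over the 48 cases was 0.0715. With the 3 tumours that stood apart left out, Abi1 and Pea15a were still called, and Swap70 and Car4 were not. With the first digit of the identifier number as a covariate 0 genes were called, and with Xist as one none of these 4 was.

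Swap70 was the only gene called under isotype alone (0.00517% of those tested), at -0.92 (SE 0.17, adjusted p 0.0393). Under anti-PD-1 its interaction was -0.36 (SE 0.17, unadjusted p 0.0352). The isotype call held in 14 of the 48 cases with 1 tumour left out, and its value stayed between -0.98 and -0.84. Lbh, Mmp13 and Tph2, which other tools called under isotype, had interactions under anti-PD-1 of -0.25 (SE 0.31), -0.05 (SE 0.81) and 1.55 (SE 0.89), against -1.44, -3.66 and 4.58 under isotype. The difference between the arms had an unadjusted p from 0.00296 to 0.0242 for these 3 genes, which were chosen for their isotype values.

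The 3 genes that DESeq2 called under anti-PD-1 were expressed at a low level. Car4 had 0 to 3 reads in each unirradiated primary tumour, or at most 0.0593 CPM, and 0.0274 to 1.85 CPM in irradiated ones. In allografts it was at 4.53, 0.375, 6.36 and 3.68 CPM at 0 Gy and at 0.806, 1.01, 2.82 and 2.38 CPM at 20 Gy. Its interaction was 5.98 in edgeR (SE 1.28, adjusted p 0.287) and 6.13 in DESeq2 (adjusted p 0.0176), between 5.55 and 6.36 in edgeR on leaving out 1 tumour. Rem2, a small GTPase that inhibits calcium channels, was at 0.722, 0.286, 0.461 and 1.12 CPM in allografts at 0 Gy and at 0.338, 0.0725, 0.219 and 0.104 CPM at 20 Gy. It rose by 1.48 in primary tumours (adjusted p 0.0143), and its interaction was 3.28 in edgeR (SE 0.70, adjusted p 0.287) and 3.31 in DESeq2 (adjusted p 0.0206). Ppbp, the third, rested on allograft tumour 3 at 0 Gy as described.

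All 18 skeletal muscle genes had positive interactions, with a median of 2.61 (0.07 in limma, where 9 of the 18 were positive, 1.42 with the 3 tumours that stood apart left out, and 1.01 without primary tumour 4 at 20 Gy alone), a median confidence half-width of 4.09 and 0 genes at an unadjusted p under 0.05. Their summed level was 2960 to 19800 CPM in allografts at 0 Gy and 2270 to 17300 CPM at 20 Gy, and 114.9 to 9360 CPM and 36.3 to 101000 CPM in primary tumours. Primary tumours 4 and 8 at 20 Gy held 101120 and 30057 CPM. None of the 18 genes was at 0 in any of the 24 tumours. With the mean level of these genes as a covariate the number of interaction calls was 0, and Nr4a1, Abi1 and Ltc4s kept the sign of their interactions. The 8 adipocyte genes tested likewise had positive interactions (median 1.52, or 0.691 without primary tumour 4 at 20 Gy, 2.87 without allograft tumour 2 at 20 Gy and 0.858 in limma), and their summed level reached 406 CPM in an irradiated primary tumour against a median of 75 CPM in that group. The part of these tissues in the interactions of single genes was not otherwise tested.

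**Figure D5:**
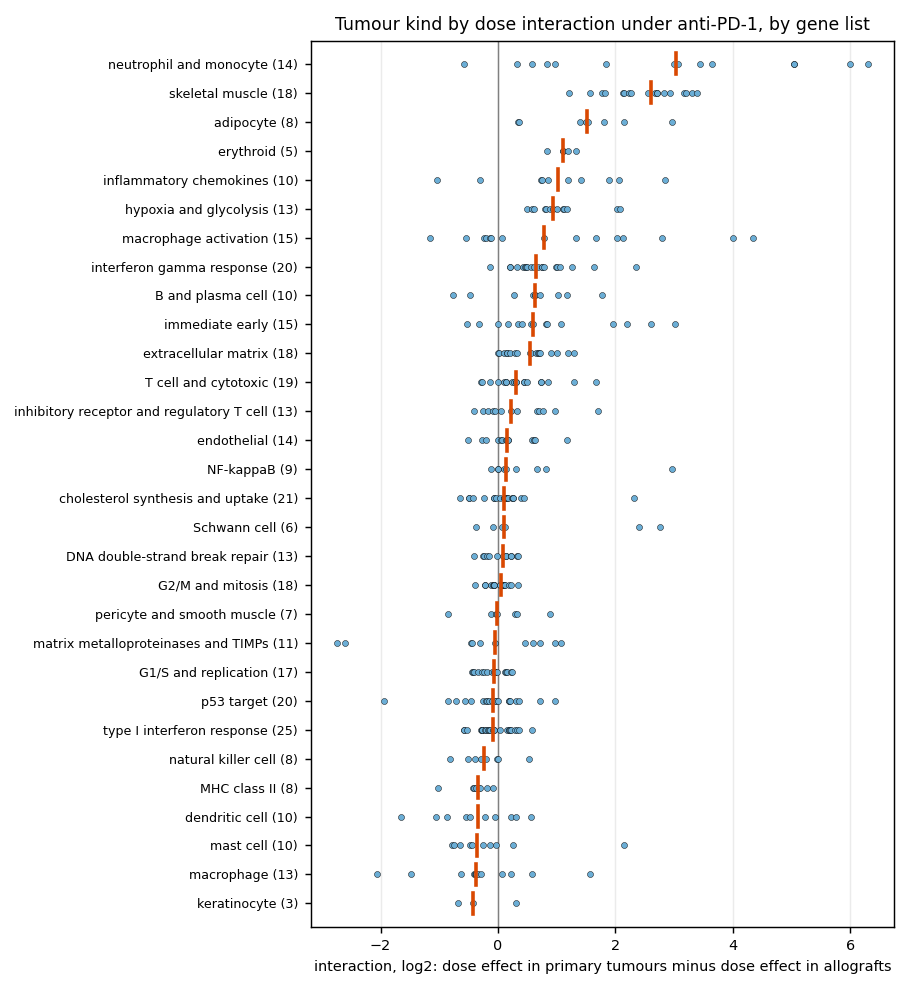
Each point is 1 gene's tumour kind by dose interaction under anti-PD-1 in log2 units, by gene list, with the number of genes tested in brackets and the list median as a bar. Lists are ordered by their median, from neutrophil and monocyte genes (3.03) and skeletal muscle (2.61) down to keratinocyte genes (-0.42). Type I interferon, mitosis and cholesterol genes have medians of -0.09, 0.06 and 0.10.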

How the data were processed

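The series holds bulk RNA-seq of 48 tumours in 8 groups (tumour kind, dose and antibody), made with a stranded mRNA kit, per the labels' protocols. The authors deposited 1 table of whole-number read counts per Ensembl gene, with 36854 genes, whose name refers to a first run; no other run was used here. Trimmomatic 0.36, STAR, HTSeq and the build mm10 are named in the submitters' processing notes. Their settings, the gene annotation and the strandedness of the counting are not given in the sources used here, so overlapping genes, antisense genes and families with near-identical members (such as Ifit, Oas and Slfn genes) may share or lose reads.

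Counts were filtered with filterByExpr, which left 19327 genes, scaled by TMM and fitted over all 48 tumours with 1 coefficient per group in edgeR 4.0.16 (R 4.3.3), by its quasi-likelihood F test with Benjamini-Hochberg adjustment over all genes tested. A call is an adjusted p below 0.05, and "unadjusted p" is that of the same test. Standard errors were taken as the log2 difference over the square root of F, and confidence intervals are at 95%. CPM values use TMM-scaled library sizes. The steps were tested on simulated counts. Intervals cover the spread between libraries only.

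The members, 30 gene lists with 396 genes (391 tested) and the rules were chosen with earlier results of these data known. The text names the 12 positive and 12 negative interactions of smallest p (mean of at least 5 CPM in a group, standard symbol), genes called in an interaction, leading and preset genes of the lists, and genes reported for other contrasts of the series. Car4, Rem2, Nr4a2, Herc6, Slfn4, Ngp, Camp and Xist, and list members outside that rule, were named after their values were seen. Results of some listed genes are not reported here. Alternatives were DESeq2 1.42.0 (its size factors and its Wald test), no expression filter, limma 3.58.1 with voom weights by tumour kind, only the 24 anti-PD-1 tumours, robust dispersions, covariates (identifier digit, Xist, skeletal muscle), and each tumour left out.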

Additional observations from a re-analysis of the deposited data

Results flagged for a closer look

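Over 51 named genes and 4 groups, 204 sets of tumours were checked for a value far from the rest of its group, by the gap to the nearest other tumour relative to the whole range, and 41 (20.1%) held one. Chance marks about 1 set in 20 where values are normally distributed. The rule was run on CPM, for which that was not tested, so the share that chance marks here is not known. The genes also share the tumours, and many were named for their interactions. All values in the next 3 paragraphs are CPM.

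Primary tumour 4 at 0 Gy held 12 of the 41: Nr4a1 at 68.5, Nr4a2 at 72, Vegfa at 234, Slc39a14 at 164, Cplx2 at 125.7, Ptpn5 at 6.5, Il6 at 4.28, Mmp8 at 3.54, Ltf at 1.48, Camp at 2.15, S100a8 at 91.2 and Slfn4 at 90.4. Among the other unirradiated primary tumours, Ppbp was at 1.79 in tumour 5, Actr3 at 649 in tumour 6, Cd8a at 22.4 in tumour 1 and Car4 at 0.0593 in tumour 8.

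Among irradiated primary tumours, tumour 5 stood apart for Bhlhe40 at 245, Uap1 at 295, Mki67 at 163, Hmgcs1 at 66.6 and Camp at 11.7. Tumour 6 did so for Mmp8 at 134.3, Ppbp at 17.6, Il6 at 42.5 and S100a8 at 199.9. Tumour 2 had Nr4a1 at 235 and Lbh at 421, tumour 3 had Stap1 at 10.3, and tumour 4 had Cd8a at 40.3.

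Among allografts at 0 Gy, tumour 3 stood apart for Ppbp at 20.8, Ltf at 82.7, S100a8 at 215, Ngp at 164 and Camp at 68.7, and tumour 2 for Ltc4s at 1.07, its only low value here, and Cx3cr1 at 155. At 20 Gy, tumour 4 had Nr4a1 at 150 and Slc39a14 at 147, tumour 2 had Abi1 at 203 and Fcrls at 54.3, and tumour 3 had Slfn4 at 420.

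In the main fit the dose effect differed between tumour kinds by edgeR's quasi-likelihood test averaged over the antibodies, with interactions of -0.753 for Pea15a, -0.536 for Abi1, -0.639 for Swap70 and 4.62 for Car4, and for Swap70 under isotype at -0.916. With the identifier digit as a covariate 0 genes were called, averaged or under isotype. The isotype call of Swap70 held in 14 of the 48 cases with 1 tumour left out.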

How the results depend on the processing

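The number of interaction calls under anti-PD-1 stayed at 0 in every edgeR and limma alternative and was 3 in DESeq2. Primary dose calls numbered 1190 in limma and 1438 to 2889 with 1 tumour left out. Allograft dose calls numbered 29 with no expression filter, 481 in DESeq2, 1129 in limma, 0 with the 24 anti-PD-1 tumours fitted alone (2166 at an unadjusted p under 0.05), 44 with the Xist covariate, 220 with the muscle covariate, 450 with the 3 tumours that stood apart left out, and 3 to 349 with 1 tumour left out. Isotype interaction calls numbered 5 in DESeq2, 3 in limma, 0 to 2 with 1 tumour left out, and 0 with DESeq2's size factors, no filter, the identifier, Xist or muscle covariate, or those 3 tumours left out (1893, 2917, 1385, 1942, 2285 and 2092 at an unadjusted p under 0.05). Averaged over antibodies the calls numbered 1 with no filter, 69 in DESeq2, 11 in limma, 0 with the identifier digit (1416 at an unadjusted p under 0.05), 1 with Xist, 9 with muscle and 0 to 21 with 1 tumour left out. The cause of these shifts was not tested.

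Of the named genes' interactions, 498 values under other settings kept direction and side of the threshold, and so did 1199 with 1 tumour left out. The sign turned with the Xist covariate for Irf7 (0.00018), Cd8a (-0.0331), Mki67 (-0.103) and Mmp13 (0.164), in limma for Cd8a (-0.565), with the 3 tumours left out for Cd8a (-0.745) and Mki67 (-0.0786), and with the identifier digit for Mmp13 (0.21). With 1 tumour left out it turned for Irf7 (-0.333 to 0.0572), Cd8a (-0.607 to 0.724), Mki67 (-0.172 to 0.532), Hmgcs1 (-0.246 to 0.0289), Mmp13 (-0.706 to 1.06) and Slfn4 (-1.10 to 0.305), all with main values within their standard error of 0. No paired analysis was possible because the labels give no replicate numbers that link tumours across groups. Leaving out the 3 tumours together and each isotype tumour was chosen after seeing the data. The 4 allografts a dose limit what could be detected.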

Other observations

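Mast cell genes were lower at 20 Gy in both tumour kinds by their fitted values. All 10 listed genes had negative dose effects in each kind, with medians of -1.77 in primary tumours and -1.45 in allografts. In primary tumours, where 3.24% of all genes fell, edgeR called 1, Mcpt2, a mast cell protease, which fell by 4.56. Its allograft fold change was -3.92 (edgeR adjusted p 0.0646). DESeq2 called 5 of the 10 in primary tumours and 2 in allografts, and limma 1 and 2, all of them lower. Over the 19327 genes, in either direction, DESeq2 called 2914 in primary tumours and 481 in allografts, and limma 1190 and 1129. The summed level of the list overlapped between doses in each kind. The interactions had a median of -0.35 with a median confidence half-width of 2.58. That median was -1.27 without allograft tumour 3 at 0 Gy and 0.0383 without allograft tumour 2 at 20 Gy.

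Of 10 listed inflammatory chemokines 8 rose in primary tumours, where 7.92% of all genes did, among them Cxcl2, which attracts neutrophils, by 3.24 and Ccl2, which attracts monocytes, by 2.01. The number was 6 in limma and 5 without primary tumour 6 at 20 Gy. In allografts 0 were called, by DESeq2 1 and by limma 3, and the median interaction was 1.02 with 0 genes at an unadjusted p under 0.05. Of 9 NF-kappaB genes 6 rose in primary tumours, beside the same 7.92%, and Ccl20 and Tnfaip3 had interactions of 2.97 and 0.83 (unadjusted p 0.0153 and 0.0209). Of 18 extracellular matrix genes 17 had a positive interaction, with a median of 0.55, which was 0.214 without primary tumour 8 at 20 Gy and 0.974 without allograft tumour 4 at 20 Gy, and under isotype 5 of the 18 were positive (median -0.36). Lox, which crosslinks collagen, had 0.9995 (unadjusted p 0.0333). All 8 MHC class II genes had a negative interaction (median -0.34) and all 5 erythroid genes a positive one (median 1.11), with 0 genes of either list at an unadjusted p under 0.05. The MHC class II median was -1.15 without primary tumour 4 at 20 Gy, -0.135 without allograft tumour 4 at 0 Gy and -1.24 in limma, and under isotype 7 of the 8 were positive (median 0.352). The erythroid median was 0.399 without allograft tumour 3 at 0 Gy, 2 without primary tumour 4 at 0 Gy, and 0.0791 with the 3 tumours that stood apart left out, where 4 of 5 were positive.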
